A study of Mus musculus with 4 samples.

Results

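The Smads, which carry TGF-β and BMP signals into the nucleus, and the inhibitors that feed back on them were examined for chromatin accessibility in EpRas cells. The 10 genes were Smad2, Smad3, Smad1 and Smad4, here called the signal-transducing Smads, and Smad6, Smad7, Ski, Skil, Smurf1 and Smurf2, here called the feedback genes. Every FAIRE-positive region in the body of one of these genes or in the 50 kb upstream of its transcription start site (TSS) was taken, in all 4 deposited lists. Merged over the lists, 47 of the 35796 regions of the series lay in these windows, 17 at the signal-transducing Smads and 30 at the feedback genes. The rule used names and positions, and the genes were picked with earlier results of these data known.

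FAIRE-seq reads out open chromatin from the DNA that is not held in crosslinked complexes. EpRas cells are mouse mammary gland epithelial cells that express active H-Ras, and all groups share this oncogene. All cells had been transfected with siRNA and were taken at day 4. One group received control siRNA (siControl) and no TGF-β, a second siControl and TGF-β3 at 1 ng/ml, and the other two received the same TGF-β with siEtv4/5 set 1 or siEtv4/5 set 2. Each set pairs 1 siRNA against Etv4 with another against Etv5, which encode transcription factors of the ETS family. Each group is 1 list, here called a library. The study describes biological replicates, which may have been pooled in a list, so no spread between replicates could be measured and no test of a condition was made. Values for 4 libraries are given below in the order untreated siControl, TGF-β-treated siControl, set 1 and set 2. The lists held 22247, 28754, 22516 and 14925 regions at an estimated depth of 15.3, 16.3, 17.3 and 20.7 M reads, so the deepest library gave the shortest list. Both siRNA comparisons and the TGF-β comparison share the siControl library with TGF-β. Of 4 epithelial marker promoters (Cdh1, Epcam, Krt8 and Krt18), all 4 were called as accessible in the untreated library and 2 in each library with TGF-β. These 2 were Krt8 and Krt18 in TGF-β-treated siControl and with set 1, and Cdh1 and Krt8 with set 2. Of 4 blood and endothelial marker promoters (Ptprc, Cd3e, Pecam1 and Cdh5), only that of Pecam1 was called, in TGF-β-treated siControl.

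In TGF-β signalling, activated receptors phosphorylate Smad2 and Smad3, which join Smad4 and enter the nucleus to act on target genes together with partners such as AP-1 and RUNX factors. Smad1 does the same for BMP receptors. Smad6 and Smad7 are inhibitory Smads that block receptor signalling, Ski and Skil (also called SnoN) are corepressors that bind Smad complexes, and Smurf1 and Smurf2 are ubiquitin ligases that target Smads and receptors for degradation. Several of the inhibitors are themselves target genes of the pathway, which is why they are known as feedback genes.

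The sequences below are those of the accessible regions on which the later paragraphs turn, from the mm10 genome on the strand of the gene. They comprise the 1 member promoter called in all 4 libraries, the strongest constant region of each class, the strongest region of each class that was called with TGF-β and not without it, regions called in TGF-β-treated siControl alone, the 1 region called in every library with TGF-β and not in the untreated one, and the 1 region called in every library except TGF-β-treated siControl. Regions of Smad2, Smad4 and Smad7 are described by position only. Capitals mark matches, on either strand, to the letters TGANTCA (AP-1), CCGGAA (ETS), TGTGGT (RUNX) and CAGACA (Smad). Bases of the first sequence end just before the TSS, and the Smurf1 -13.1 kb sequence is the 201 bases around the summit.
Smad1 promoter, upstream of the TSS, constant, chr8:79399519-79399622, minus strand: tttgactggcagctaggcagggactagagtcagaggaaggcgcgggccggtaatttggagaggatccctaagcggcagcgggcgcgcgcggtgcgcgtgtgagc
Smad1 +49.1 kb, constant, chr8:79350305-79350582, minus strand: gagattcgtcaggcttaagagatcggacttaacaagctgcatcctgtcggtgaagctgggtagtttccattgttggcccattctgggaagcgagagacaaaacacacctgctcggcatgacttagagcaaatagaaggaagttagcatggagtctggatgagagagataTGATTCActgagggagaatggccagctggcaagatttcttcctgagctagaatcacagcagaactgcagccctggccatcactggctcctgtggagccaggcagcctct
Smurf1 -13.1 kb, constant, chr5:144978786-144978986, minus strand: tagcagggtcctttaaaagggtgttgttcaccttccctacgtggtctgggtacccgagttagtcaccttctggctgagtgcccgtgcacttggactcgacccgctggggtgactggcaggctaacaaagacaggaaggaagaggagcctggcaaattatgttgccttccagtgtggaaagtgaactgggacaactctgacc
Smad3 +79.7 kb, gained, chr9:63678184-63678379, minus strand: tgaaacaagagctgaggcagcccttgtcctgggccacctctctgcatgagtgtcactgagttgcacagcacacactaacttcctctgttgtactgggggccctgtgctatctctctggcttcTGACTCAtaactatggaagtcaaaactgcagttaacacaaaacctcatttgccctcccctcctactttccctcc
Smad6 -28.1 kb, gained, chr9:64050090-64050326, minus strand: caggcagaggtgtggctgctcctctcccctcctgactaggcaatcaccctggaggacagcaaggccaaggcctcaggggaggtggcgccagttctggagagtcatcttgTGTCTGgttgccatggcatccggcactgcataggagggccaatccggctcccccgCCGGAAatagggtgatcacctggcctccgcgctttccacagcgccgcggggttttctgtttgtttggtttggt
Smad3 +31.3 kb, TGF-β-treated siControl alone, chr9:63726640-63726779, minus strand: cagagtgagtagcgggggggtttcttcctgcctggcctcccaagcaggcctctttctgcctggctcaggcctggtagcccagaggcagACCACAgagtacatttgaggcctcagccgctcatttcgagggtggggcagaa
Ski +6.3 kb, TGF-β-treated siControl alone, chr4:155216213-155216351, minus strand: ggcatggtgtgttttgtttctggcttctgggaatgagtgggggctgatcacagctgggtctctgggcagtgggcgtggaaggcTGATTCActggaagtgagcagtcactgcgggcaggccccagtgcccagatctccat
Smurf1 +19.7 kb, TGF-β-treated siControl alone, chr5:144946081-144946231, minus strand: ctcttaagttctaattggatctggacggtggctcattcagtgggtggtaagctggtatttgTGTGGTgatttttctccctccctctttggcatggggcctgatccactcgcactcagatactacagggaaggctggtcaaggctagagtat
Smad3 +80.3 kb, all libraries with TGF-β, chr9:63677585-63677873, minus strand: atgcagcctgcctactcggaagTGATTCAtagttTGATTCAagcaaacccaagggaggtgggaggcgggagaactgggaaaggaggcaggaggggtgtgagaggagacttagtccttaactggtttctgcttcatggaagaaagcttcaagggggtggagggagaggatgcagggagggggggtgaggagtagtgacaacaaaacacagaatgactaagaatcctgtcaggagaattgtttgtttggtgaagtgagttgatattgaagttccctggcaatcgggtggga
Ski -26.8 kb, all libraries except TGF-β-treated siControl, chr4:155249344-155249468, minus strand: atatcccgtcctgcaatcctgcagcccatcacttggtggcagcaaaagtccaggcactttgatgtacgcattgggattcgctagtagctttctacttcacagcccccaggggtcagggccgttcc
Distances are from the TSS to the middle of the region, positive in the direction of transcription.

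FAIRE-positive regions were unevenly spread over the 10 genes. Smad3 held 14 of the 17 regions of the signal-transducing Smads and Smurf1 held 9 of the 30 of the feedback genes, whereas Smad2 held 1 and Smad4 none. In the library order, regions in the windows of all 10 genes numbered 33, 42, 32 and 23. Per Mb of window this came to 27.7, 35.3, 26.9 and 19.3 regions. The windows of all 21755 protein-coding genes held 16.7, 20.1, 16.3 and 11.4 regions per Mb, with a median of 1 region per gene in each library. The 10 windows were thus richer in regions than those of the average gene in all 4 libraries, and the libraries had the same order. Over the whole series, 29.6% of regions were called in all 4 libraries and 16.1% in TGF-β-treated siControl alone. Of the regions of TGF-β-treated siControl, 37.0% overlapped none of the untreated library, 33.6% none of set 1 and 53.6% none of set 2, while 18.4% of untreated regions had no counterpart in TGF-β-treated siControl. The patterns of single regions below are to be read against these shares.

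**Figure D1:**
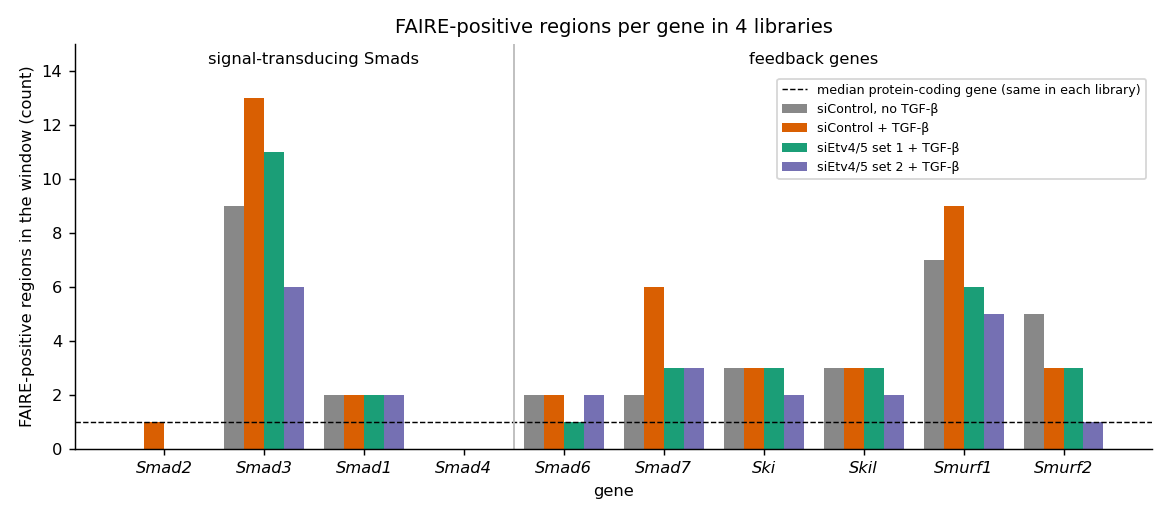
Number of FAIRE-positive regions (vertical axis, count) in the gene body and 50 kb upstream of each of the 10 genes (horizontal axis), with 1 bar per library and the median protein-coding gene as a dashed line at 1. Smad3 stands highest with 9, 13, 11 and 6 regions, Smurf1 follows with 7, 9, 6 and 5, and Smad4 has no bar.

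Smad3, the main mediator of transcription downstream of TGF-β and activin receptors, lies on the minus strand of chromosome 9 (63646767-63757994, mm10). Its window held 9 regions in untreated siControl, 13 in TGF-β-treated siControl, 11 with set 1 and 6 with set 2. Ranked among all protein-coding genes by this count, Smad3 stood at percentile 99.5, 99.8, 99.8 and 99.2. The rank was not adjusted for window length, and the Smad3 window, at 161.2 kb, was the longest of the members. Per Mb it held 55.8, 80.6, 68.2 and 37.2 regions. Of its 14 merged regions, 10 lay in intron 1, 1 in intron 5 and 3 upstream. The promoter region at -0.2 kb was called in the untreated library at a fold enrichment of 7.20 with 19 fragments at the summit, and with set 1 at 6.31 with 19 fragments. It was called neither in TGF-β-treated siControl nor with set 2, where at least 13 and 15 fragments would have been needed for a call. Fold enrichment is the authors' ratio of the signal at the summit to the local background.

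Within intron 1 of Smad3, the regions differed in the libraries that held them. The +14.0 kb region was constant, that is, called in all 4 libraries, and its fold enrichment was 7.94, 9.39, 6.82 and 5.67, highest in TGF-β-treated siControl. The +41.7 kb region was constant as well, at 6.39, 6.43, 6.14 and 6.01, a narrow range. The +83.2 kb region stood at 6.59, 8.86, 5.68 and 5.81, again highest in TGF-β-treated siControl. A cluster at +79.7 and +80.3 kb was absent from the untreated library. There, +79.7 kb was called in TGF-β-treated siControl (7.49, 26 fragments) and with set 1 (7.35, 22 fragments), and +80.3 kb in every library with TGF-β at 5.82, 7.63 and 6.11. In the untreated library at least 14 fragments would have been needed at either site. The +39.0 kb region, with 35 fragments in TGF-β-treated siControl and 28 with set 1, had the same pattern as +79.7 kb. The +31.3 kb region was called in TGF-β-treated siControl alone, at 5.08 with 22 fragments, where the other libraries needed at least 17, 18 and 20. One more region, at +10.1 kb, was called with set 1 alone at 5.93 with 19 fragments.

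The remaining Smad3 regions were shared by 2 or more libraries. At +36.1 kb the untreated library was the strongest, with 8.38 and 43 fragments against 5.35 and 32 in TGF-β-treated siControl and 6.39 and 31 with set 1, and no region was called with set 2. At +51.4 kb set 1 was the strongest, at 9.42 against 6.53 untreated and 7.66 in TGF-β-treated siControl. At +100.6 kb, in intron 5, both siControl libraries had a call, at 8.04 and 9.24, and neither siRNA set had one. Upstream, the -35.9 kb region was missing with set 1 alone and stood at 8.72, 7.93 and 8.19 in the other libraries. The -45.4 kb region was called in all 4 libraries at 6.51, 6.83, 8.48 and 6.70, and held 2 adjacent peaks in TGF-β-treated siControl. It lay 1.6 kb from the TSS of Gm2553, which was nearer than that of Smad3. The same TSS was the nearest to the -35.9 kb region. For the regions at +79.7, +80.3, +83.2 and +100.6 kb the nearest TSS was that of Aagab.

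Smad2, the other receptor Smad of the TGF-β branch, on the plus strand of chromosome 18 (76241580-76310963), held 1 region. It lay 0.3 kb upstream of its TSS and no library but TGF-β-treated siControl held it, at a fold enrichment of 5.93 and with 14 fragments at the summit. A call elsewhere needed at least 12 fragments (untreated and set 1) or 13 (set 2), so the summit stood 2 fragments or fewer above what they required. Smad4, the partner shared by both branches, on the minus strand of chromosome 18 (73639009-73703780), had no region in any library. This was also true of 26.5% of protein-coding genes.

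Smad1, on the minus strand of chromosome 8 (79338395-79399518), held 2 regions, and both were called in all 4 libraries. The region across its TSS stood at a fold enrichment of 7.47, 9.43, 9.69 and 5.48, with 19, 29, 27 and 17 fragments. The region at +49.1 kb, in intron 4, stood at 10.5, 11.2, 7.72 and 7.17, with 33, 39, 24 and 24 fragments, and was the strongest distal region of the signal-transducing Smads in TGF-β-treated siControl. Set 2 was the lowest at both sites. With set 2 relative to TGF-β-treated siControl, the summit fragments per M reads were 0.462-fold at the promoter (exact conditional 95% interval 0.238 to 0.869) and 0.485-fold at +49.1 kb (0.279 to 0.826). The intervals cover counting error only. The median over all regions called in both of these libraries was 0.630-fold on the same scale, inside both intervals.

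**Figure D2:**
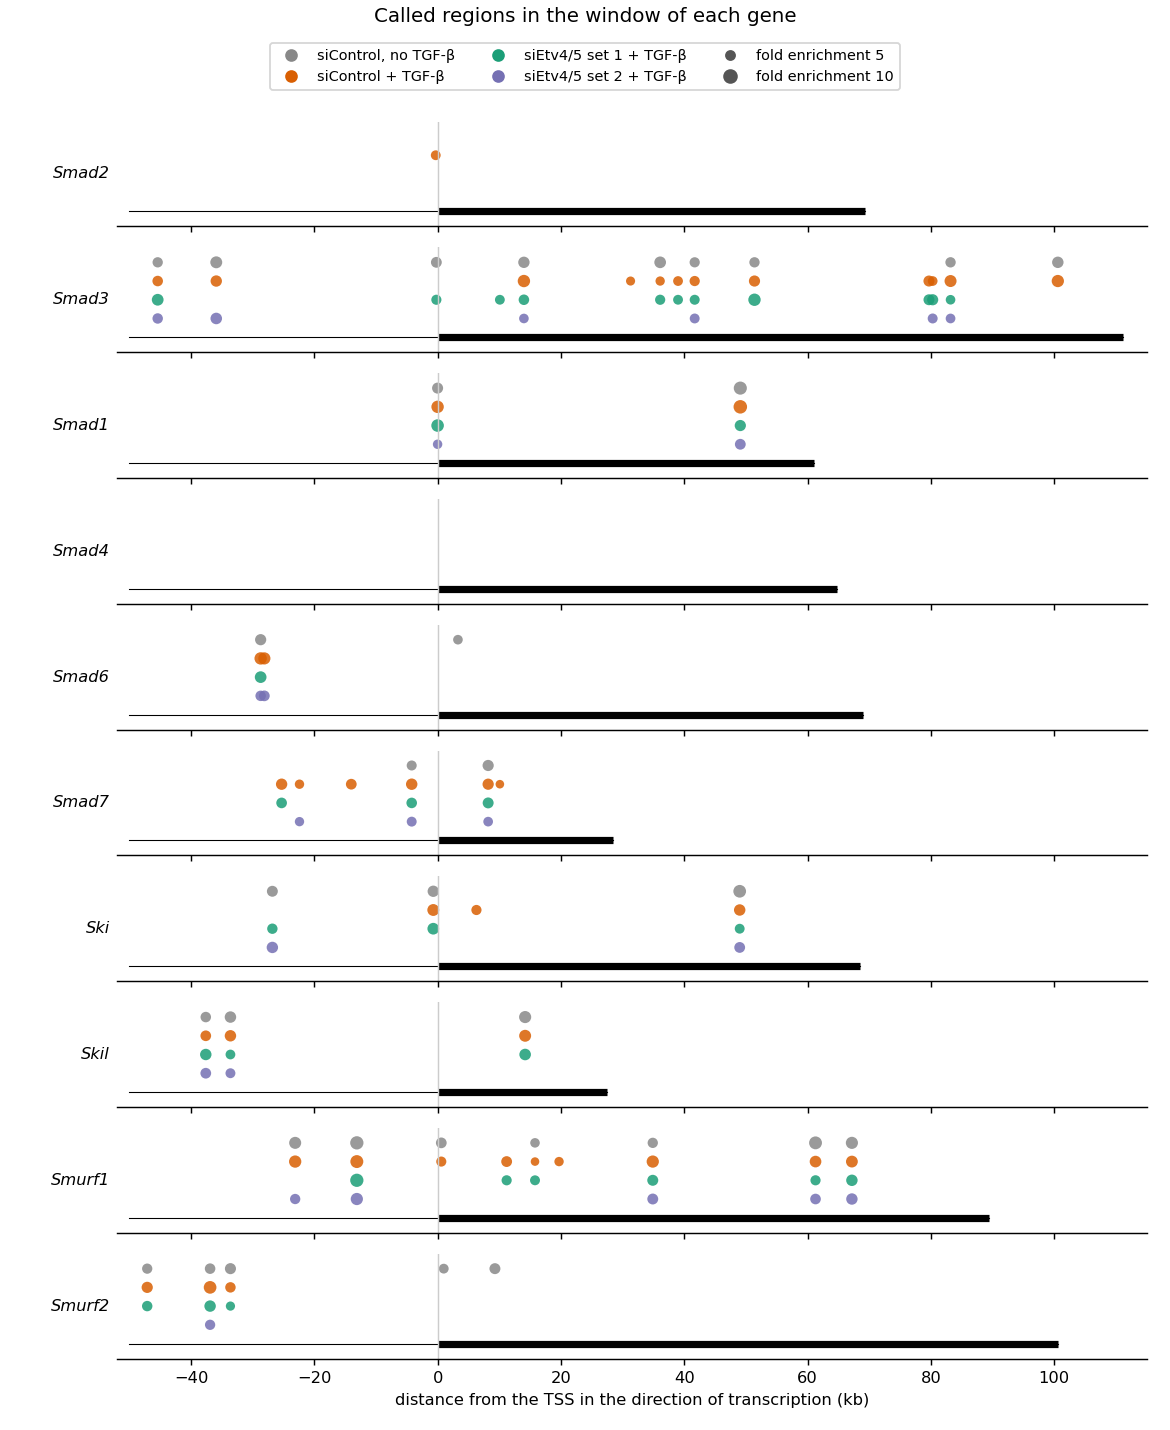
Called regions in the window of each gene. The horizontal axis is the distance from the TSS in kb, the thick line is the gene body and the thin line the 50 kb upstream, the 4 rows of points are the libraries from untreated siControl (top) to set 2 (bottom), and the area of a point is proportional to fold enrichment. Smad3 has the most points, the promoter of Smad1 is marked in all 4 rows, and Smad4 has none. The 2 adjacent peaks of Smad3 at -45.4 kb in TGF-β-treated siControl are drawn as 1 point.

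In the 50 kb window, Smad7 had the largest difference in region count with TGF-β of the feedback genes. With 10 kb upstream it held 2 and 3 regions without and with TGF-β, where Smurf1 held 5 and 7 and Smurf2 2 and 0. Smad7, on the plus strand of chromosome 18 (75367529-75395935), blocks the type I TGF-β receptor. It held 2 regions in untreated siControl, 6 in TGF-β-treated siControl and 3 with either siRNA set. Its 2 constant regions, at -4.2 and +8.2 kb, were called in all 4 libraries. At -4.2 kb fold enrichment was 6.17, 8.03, 6.87 and 6.06, and at +8.2 kb, in intron 2, it was 7.68, 7.75, 7.37 and 5.76, lowest with set 2 at both.

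The other 4 regions of Smad7 were absent from the untreated library. The -25.3 kb region was called in TGF-β-treated siControl at 7.91 with 29 fragments and with set 1 at 6.99 with 25 fragments. The -22.4 kb region was called in TGF-β-treated siControl at 5.40 with 21 fragments and with set 2 at 5.37 with 20 fragments. The regions at -14.0 kb (7.09, 16 fragments) and, in intron 3, +10.1 kb (4.55, 18 fragments) were called in TGF-β-treated siControl alone. The least number of fragments for a call in the untreated library was 15 at -25.3 and -22.4 kb, 11 at -14.0 kb and 16 at +10.1 kb, so that these absences also include sites only a few fragments from a call. No region lay within 2 kb of the TSS of Smad7 in any library.

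Smad6, which acts mainly against BMP receptors, on the minus strand of chromosome 9 (63953076-64022059), held 2, 2, 1 and 2 regions. A pair of neighbouring regions lay upstream at -28.7 and -28.1 kb, 0.9 and 0.4 kb from the TSS of 1110036E04Rik, in whose gene body they fall. The -28.7 kb region was constant at 7.70, 9.39, 8.40 and 6.73. The -28.1 kb region was called in TGF-β-treated siControl at 9.10 with 26 fragments and with set 2 at 7.05 with 19 fragments. It was not called in the untreated library or with set 1, where at least 12 and 13 fragments would have been needed. The third region, at +3.3 kb in intron 1, was called in the untreated library alone, at 5.70 with 16 fragments.

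The corepressor genes Ski and Skil had the same number of regions with and without TGF-β in the 50 kb window, while with 10 kb upstream Ski held 2 without and 3 with TGF-β. Ski, on the minus strand of chromosome 4 (155154075-155222592), held 3 regions in each library except set 2, which held 2. Its promoter region at -0.7 kb was called at 7.90, 8.68 and 8.40 in the first 3 libraries, with 16 to 19 fragments, and not with set 2. At least 12 fragments would have been needed with set 2. At the median ratio to TGF-β-treated siControl of regions called in both libraries, 15.2 would be expected there. The +49.0 kb region in intron 1 was constant at 9.91, 8.04, 5.98 and 7.19, highest in the untreated library. The count was the same with and without TGF-β although the regions were not, since 1 region was called in TGF-β-treated siControl alone (+6.3 kb in intron 1, fold enrichment 6.37, 14 fragments) and another in every library but this one. The latter, at -26.8 kb, stood at 7.33, 6.61 and 7.98 in the untreated library, set 1 and set 2, and lay 0.6 kb from the TSS of Faap20. Of all 35796 regions, 0.807% had this pattern.

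Skil, on the plus strand of chromosome 3 (31095058-31122577), held 3, 3, 3 and 2 regions, all distal. At -37.6 kb the 4 libraries stood at 6.77, 6.996, 8.04 and 7.07, and at -33.6 kb at 8.07, 8.03, 5.85 and 6.04, so that the neighbouring sites were ordered differently. The +14.2 kb region, in intron 2, was called at 9.01, 8.76 and 8.23 in the first 3 libraries and was not called with set 2. At least 14 fragments would have been needed there, against 23 to 25 seen in the others. At the median ratio to TGF-β-treated siControl of regions called in both libraries, 20 would be expected with set 2.

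Of the ubiquitin ligase genes, Smurf1 had more regions with TGF-β and Smurf2 fewer. Smurf1, on the minus strand of chromosome 5 (144876495-144965847), held 7, 9, 6 and 5 regions. Its region at -13.1 kb was the strongest constant region of the feedback genes, at 10.8, 10.3, 10.8 and 9.17, with 32, 32, 30 and 28 fragments. The intronic regions at +34.9, +61.3 and +67.2 kb were also constant. At +34.9 kb fold enrichment was 6.51 untreated and 9.20 in TGF-β-treated siControl, and at +61.3 kb it was 10.2 and 8.35, both in intron 1. In summit fragments per M reads these were 1.60-fold (exact conditional 95% interval 0.852 to 3.11) and 0.839-fold (0.469 to 1.49) with TGF-β, so the intervals overlapped and each held 1. Upstream, the -23.1 kb region, in the gene body of Kpna7, was called in all libraries but set 1. Its fold enrichment was 8.88, 9.27 and 6.52 in the untreated library, TGF-β-treated siControl and set 2. The promoter region at +0.6 kb was called in both siControl libraries, at 7.07 and 6.26 with 22 and 19 fragments. It was called with neither siRNA set, where at least 15 and 16 fragments would have been needed. At the median ratio of regions called in both libraries, 17.1 and 15.2 fragments would be expected there, so this site was near the limit of a call. In intron 1, the regions at +11.2 kb (7.20, 24 fragments) and +19.7 kb (5.39, 19 fragments) were called in TGF-β-treated siControl and not without it, the latter in no other library.

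Smurf2, on the minus strand of chromosome 11 (106820066-106920715), held 5, 3, 3 and 1 regions and was, in the 50 kb window, the only one of the 10 genes with fewer regions in TGF-β-treated siControl than without. With 10 kb upstream Smad6 had fewer as well (1 without and 0 with TGF-β). Its promoter-proximal region at +1.0 kb (5.89, 19 fragments) and the region at +9.3 kb (7.37, 21 fragments), both in intron 1, were called in the untreated library alone. Together with Smad6 +3.3 kb these made 3 of the 47 member regions found there only, against 7.72% of all regions. Upstream, the -36.9 kb region was constant at 6.84, 9.87, 8.06 and 6.49, and its 51 summit fragments in TGF-β-treated siControl were the most of any member region. The -47.1 and -33.6 kb regions were called in the first 3 libraries, the former at 6.45, 7.71 and 6.68 and the latter at 7.54, 6.72 and 5.22, and with set 2 neither was called.

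At the promoters, defined as within 2 kb of an annotated TSS, 5, 4, 3 and 1 of the 10 genes had a region in the library order. Smad1 was the 1 gene called in all 4 libraries. Among all protein-coding genes 36.4%, 38.4%, 34.4% and 27.5% had a promoter region, and 23.8% had one in all 4 libraries. The promoters of Smad4, Smad6, Smad7 and Skil were called in no library, as were those of 57.1% of protein-coding genes. Of the 47 regions, 6 were at a promoter of the member gene, 27 lay in introns, 20 upstream and none in an exon, the promoter regions being counted in both ways. The member was the gene of the nearest TSS for 25 of the 47.

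To ask whether the signal-transducing Smads and the feedback genes differed in their response, regions were compared by class. In the library order, the signal-transducing Smads held 11, 16, 13 and 8 regions (21.7, 31.6, 25.7 and 15.8 per Mb) and the feedback genes 22, 26, 19 and 15 (32.2, 38.0, 27.8 and 21.9 per Mb). Both classes were highest in TGF-β-treated siControl and lowest with set 2, as was the whole series. The list of TGF-β-treated siControl was also the longest and that of set 2 the shortest. With the 14925 most significant regions of every library, the signal-transducing Smads held 5, 6, 9 and 8 regions and the feedback genes 14, 15, 11 and 15. Set 2 was then not the lowest in either class. As 14925 is the length of the set 2 list, its counts could not change and those of the other libraries could not rise. The cause of the order was not tested. The count of the signal-transducing class rested on Smad3. Without it, the other 3 genes held 2, 3, 2 and 2 regions, or 5.79, 8.69, 5.79 and 5.79 per Mb, below the average gene in all 4 libraries.

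Regions of TGF-β-treated siControl without a counterpart in the untreated library were termed gained, and untreated regions without a counterpart in TGF-β-treated siControl were termed lost. Over the series, 37.0% were gained and 18.4% lost. At the signal-transducing Smads 6 of 16 regions were gained (37.5%, exact 95% interval 15.2 to 64.6), 5 of them at Smad3 including 1 of the 2 adjacent peaks at -45.4 kb, and the other the Smad2 promoter. At the feedback genes 8 of 26 were gained (30.8%, 14.3 to 51.8), 4 of these at Smad7, 2 at Smurf1 and 1 each at Smad6 and Ski. Lost regions were 1 of 11 (9.09%, 0.230 to 41.3) at the signal-transducing Smads, the Smad3 promoter, and 4 of 22 (18.2%, 5.19 to 40.3) at the feedback genes. Each interval held the share of the whole series and the share of the other class, so no difference between the classes was detectable with so few regions. The intervals treat regions as independent, although 13 of the 16 signal-transducing regions in TGF-β-treated siControl lay at Smad3. With lists of equal length, 34.4% of all regions were gained and 34.3% lost, and lost regions came to 40% at the signal-transducing Smads and 28.6% at the feedback genes. Lists of equal length leave almost the same number of regions without a counterpart on either side, whatever the treatment did. This setting therefore cannot show whether gained regions exceed lost ones over the series.

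With set 1, 33.6% of all regions of TGF-β-treated siControl were absent, and 4 of 16 (25%, 7.27 to 52.4) at the signal-transducing Smads and 8 of 26 (30.8%, 14.3 to 51.8) at the feedback genes. With set 2, 53.6% of all regions were absent, and 7 of 16 (43.8%, 19.8 to 70.1) and 12 of 26 (46.2%, 26.6 to 66.6) in the same order. In the other direction, 15.2% of all regions of set 1 and 10.3% of those of set 2 were missing from TGF-β-treated siControl. At the signal-transducing Smads these were 2 of 13 with set 1, both at Smad3, and 0 of 8 with set 2, and at the feedback genes 1 of 19 and 1 of 15, in each case the -26.8 kb region of Ski. The interval of each class held the share of the whole series for both sets. With lists of equal length, 31.4% of all regions were absent with set 1 and 33.4% with set 2, against 33.3% and 33.3% at the signal-transducing Smads and 40% and 26.7% at the feedback genes. Added regions were then 55.6% with set 1 and 50% with set 2 at the signal-transducing Smads and 18.2% and 26.7% at the feedback genes, against 31.4% and 33.0% of all. At equal length the absent and added shares of a pair are bound to be nearly equal over the series. Which of them is larger cannot be told from this setting. Over the series, the share absent with set 2 was then close to that with set 1.

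**Figure D3:**
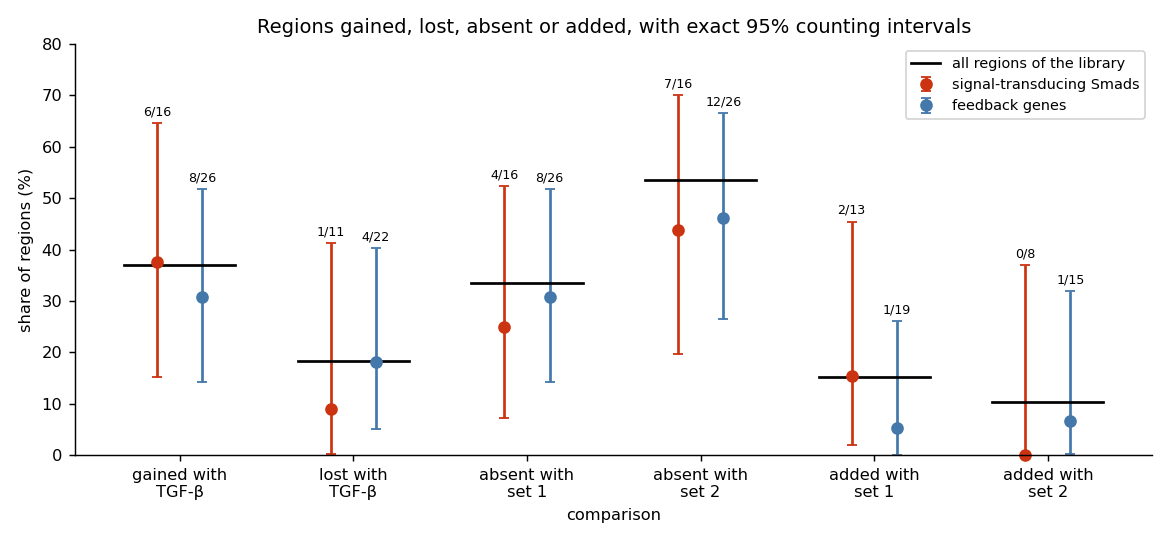
Share of regions (vertical axis, %) that were gained or lost with TGF-β, or absent or added with each siRNA set, for the signal-transducing Smads and the feedback genes. Points carry exact 95% binomial intervals, which cover counting error only, the counts stand above them, and the black line is the share over all regions of the library. All 12 intervals hold the black line.

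How near the uncalled sites were to a call was examined from the summit fragments. For each region absent from a library, the number of fragments expected there was set beside the least number that could have been called. The expected number used the depth of that library and the median ratio of the regions called in both libraries. For the 13 gained regions of the 10 genes that had no untreated call in the merged region, the median excess was 3.14 fragments at the signal-transducing Smads and 2.86 at the feedback genes, against 4.71 over all gained regions of the series. With set 1 it was 3 and 2.25, against 4.9, and with set 2 it was 4 and 1.5, against 2.4. The largest excess was 11 fragments, for Smad3 +39.0 kb in the untreated library, followed by 10.5 for Smurf2 +9.3 kb in TGF-β-treated siControl. The largest summit that would still have gone uncalled was then compared with the called one. It was lower by more than the counting interval allowed, relative to the median region, at 0 of the 13 gained, 0 of the 5 lost, 0 of the 12 regions absent with set 1 and 0 of the 19 absent with set 2. Over the whole series it was lower in this sense at 6.01%, 17.0%, 4.84% and 2.01% of such regions. A region that was not called may therefore still have been accessible.

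At regions called in both libraries of a pair, the strength of the signal was compared. Sites called in a single library of the pair do not enter these ratios. With TGF-β the median log2 ratio of fold enrichment was 0.15 over 10 regions of the signal-transducing Smads and 0.00 over 18 of the feedback genes, against 0.12 over all 18085 shared regions. The highest ratio was 0.53 at Smurf2 -36.9 kb, and the lowest -0.65 at Smad3 +36.1 kb. With set 1 the medians were 0.02 over 11 regions and -0.18 over 18, against -0.16 over all 19034. With set 2 they were -0.35 over 8 and -0.35 over 14, against -0.38 over all 13323. On the scale of summit fragments per M reads the median of the signal-transducing Smads lay below that of all regions with both sets, at log2 ratios of -0.33 against -0.24 with set 1 and -0.83 against -0.67 with set 2, so its side of the series median depended on the scale. The siRNA comparisons had as their extremes Smad3 +83.2 kb (-0.64) and Smurf1 +15.8 kb (0.43) with set 1, and the Smad1 promoter (-0.78) and Smad3 +80.3 kb (0.07) with set 2.

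**Figure D4:**
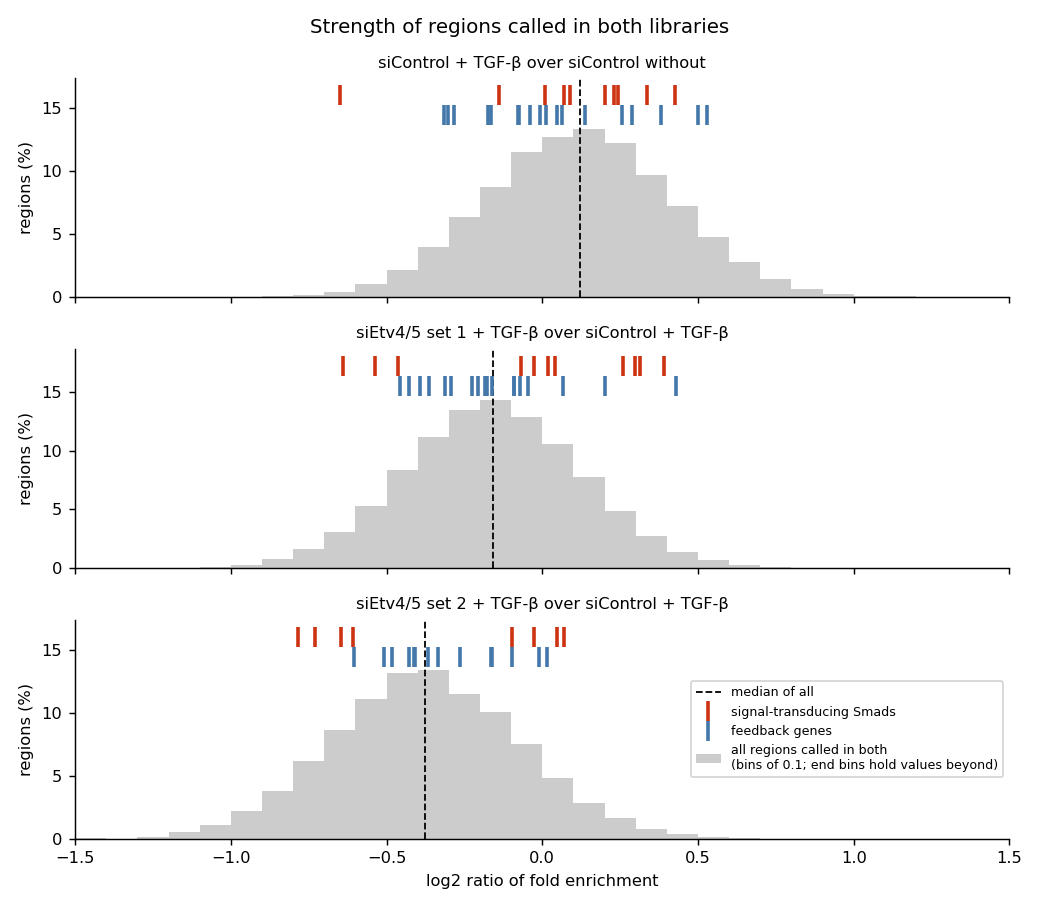
Log2 ratio of fold enrichment (horizontal axis) at regions called in both libraries of a pair. Grey bars are the share of all such regions (vertical axis, %), the dashed line is their median, and ticks are the member regions of each class. The medians of all regions are 0.12, -0.16 and -0.38 from top to bottom, and the ticks of both classes lie on either side of them.

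Regions above the median ratio of the series numbered 5 of 10 at the signal-transducing Smads and 6 of 18 at the feedback genes with TGF-β. They numbered 8 of 11 (72.7%, 39.0 to 94.0) and 7 of 18 (38.9%, 17.3 to 64.3) with set 1, and 4 of 8 and 8 of 14 with set 2. The intervals of the classes overlapped in each comparison. For the feedback genes with set 1 the share went from below to above 50% with lists of equal length (66.7%) and with regions nearest to the TSS of the member only (71.4%), so this order was not stable. For the signal-transducing Smads with set 1 the share was 45.5% on the scale of summit fragments per M reads and 50% with lists of equal length. For no member region did the exact interval of its fragment ratio leave the median of the series, in either direction and in any of the 3 comparisons. Over all shared regions the interval lay above the median in 0.807% and below it in 0.542% with TGF-β, 0.504% and 0.546% with set 1, and 1.01% and 0.863% with set 2.

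Of the 47 regions, 17 were called in all 4 libraries, 6 at the signal-transducing Smads and 11 at the feedback genes, against 29.6% of all regions. Regions called in TGF-β-treated siControl alone were 2 of 17 and 4 of 30, against 16.1% of all, and the 1 region called in all libraries with TGF-β but not in the untreated one compares with 3.78% of all. At the 17 constant regions, TGF-β-treated siControl had the highest fold enrichment at 9 and set 2 the lowest at 10, where the shares over all 10594 constant regions were 55.3% and 65.3%. Median fold enrichment was 7.03, 9.12, 7.27 and 5.91 at the 6 regions of the signal-transducing Smads and 7.70, 8.35, 7.41 and 6.96 at the 11 of the feedback genes. It was 8.80, 9.78, 8.62 and 7.36 over all constant regions, which were thus stronger than the constant member regions in each library. The summits of a constant member region lay within 20 to 233 bp of each other.

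**Figure D5:**
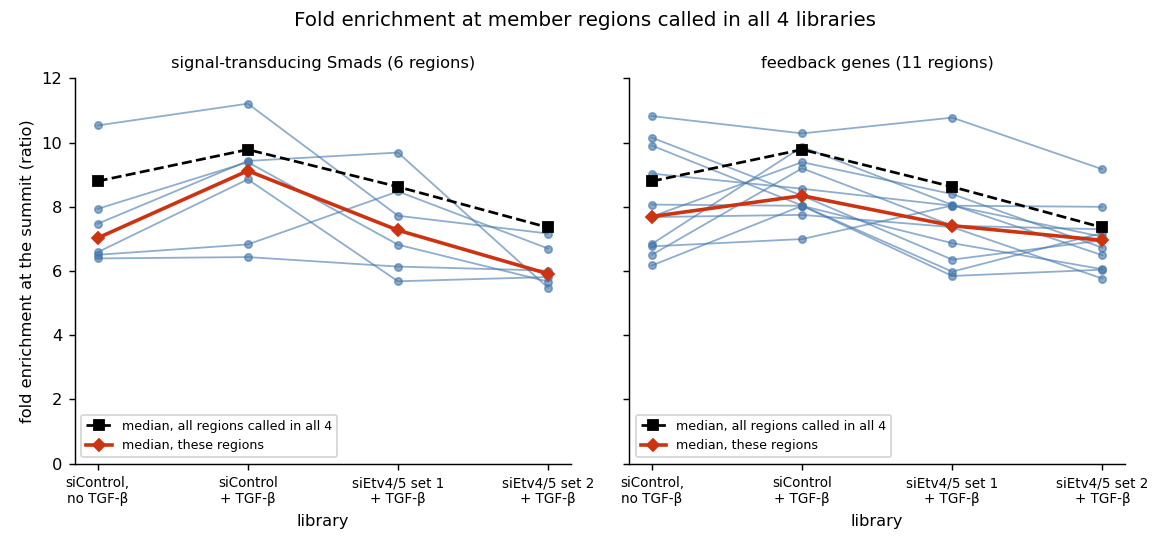
Fold enrichment at the summit (vertical axis, ratio) in the 4 libraries (horizontal axis) at the 17 member regions called in all of them. Each blue line is 1 region, the red line is the class median and the dashed black line the median over all 10594 constant regions. All 3 medians are highest in TGF-β-treated siControl and lowest with set 2, and the red lines lie below the dashed line.

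The letters of 4 binding motifs and of the Smad palindrome were searched in the 300 bases around each summit on both strands. Among regions farther than 2 kb from any TSS, the AP-1 letters TGANTCA were present in 10 of 13 at the signal-transducing Smads (76.9%, 46.2 to 94.96) and in 12 of 23 at the feedback genes (52.2%, 30.6 to 73.2), against 52.1% of all 24040 such regions. The canonical letters TGAGTCA alone were present in 8 of 13 and 8 of 23, against 44.1%, and stand as TGACTCA in the Smad3 +79.7 kb sequence printed above. The matches in Smad3 +80.3 kb, Smad1 +49.1 kb and Ski +6.3 kb read TGATTCA. The RUNX letters TGTGGT were found in 4 of 13 and 10 of 23, against 30.6%, and the Smad letters CAGACA in 1 of 13 and 7 of 23, against 28.9%. The ETS letters CCGGAA were found in 1 of 13 and 2 of 23, against 4.94%. The full Smad palindrome GTCTAGAC was in no member region, and in 0.362% of all distal regions. The intervals of the AP-1 shares held the share of the whole series in both classes. They treat regions as independent, although apart from Smad1 +49.1 kb the distal regions of the signal-transducing Smads all lay at Smad3.

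The other genes of the pathway were counted in the same windows for comparison. The 60 genes comprised other Smads, receptors, ligands, Smad partners, further inhibitors and target genes, and held 157, 195, 155 and 109 regions. With TGF-β, 26 of the 60 had more regions, 8 fewer and 26 the same number, while of the 10 members 4 had more (Smad2, Smad3, Smad7 and Smurf1), 1 fewer and 5 the same. Among all protein-coding genes 31.0% had more and 12.03% fewer. With set 1, 32 of the 60 had fewer regions than TGF-β-treated siControl and 7 more, and 5 of the 10 members had fewer and none more. Of all genes 33.0% had fewer and 9.59% more with set 1. With set 2, 40 of the 60 and 7 of the 10 had fewer, and 4 and 0 more. Of all genes 48.1% had fewer and 3.65% more with set 2. Genes with several regions have more room to differ than the median gene with 1, so these shares are not on an equal footing.

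Within the pathway, the 12 receptor genes held 22, 32, 21 and 11 regions, and 7 of them had more with TGF-β than without, 2 fewer and 3 the same. Tgfbr1 and Tgfbr2, the type I and type II TGF-β receptors, held 3, 5, 4, 1 and 3, 5, 4, 3 regions. Smad5, a BMP Smad like Smad1, held 4, 5, 4 and 3. The 12 further inhibitors held 35, 44, 39 and 22, of which Ldlrad4, which limits Smad2 and Smad3 activation, had 8, 11, 10 and 2. The inhibitor Pmepa1 held 5, 5, 6 and 3. The 13 target genes held 43, 49, 41 and 32, with 4, 6, 0 and 1 at Id1, a BMP target. The 7 ligand genes held 7, 8, 5 and 6 and the 14 Smad partners 46, 57, 44 and 35, so TGF-β-treated siControl had the most regions in each of these lists and set 2 the fewest in all but the ligands. The 2 other Smads, Smad5 and Smad9, held 4, 5, 5 and 3. TGF-β-treated siControl also had the longest peak list and set 2 the shortest, and these counts were not recomputed with lists of equal length.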

How the data were processed

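The 4 groups of EpRas cells followed the sample labels, and each had 1 deposited FAIRE-seq peak list. The members and gene lists were chosen with earlier results of these data known. Per the methods, Ion Proton reads were trimmed to 36 bp, aligned to mm10 by bowtie2, and peaks were called by the authors using MACS2 with a q-value limit of 0.0001. The submitters' processing notes give Bowtie and MACS2 version 2.1.0, whereas the methods give another version of MACS2. The deposited lists give the authors' fold enrichment (a ratio, summit signal over local background), -log10 p-value, -log10 q-value, a score derived from the q-value, and the summit position.

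Summit fragments and local background were solved from the deposited fold enrichment (pileup plus 1 over background plus 1) and the Poisson p-value, and a whole number of fragments returned the deposited -log10 p-value within 0.001 in 100% of peaks. Depth was taken from the lowest background with an effective genome of 1.87 Gb. Peaks overlapping by 1 bp or more were shared, and the peaks of all lists were merged into regions. Windows came from the GENCODE M21 basic annotation of GRCm38, and sequences from its genome. The least fragments for a call were the fewest whose Poisson p-value, on the background of the libraries with a call, reached the lowest in the list of the other library. Shares carry exact Clopper-Pearson 95% intervals and ratios exact conditional binomial ones. With 1 list per group no p-value was computed. All 10 genes were named. The regions named were those at promoters, the strongest distal region of each gene, those called in 1 siControl library alone, those in all TGF-β libraries only and those missing from TGF-β-treated siControl alone. The other regions of the 47 were named after their values were seen. Alternatives were a q-value below 1e-06, an overlap of 50% of the shorter peak, lists of equal length, 10 kb upstream, nearest TSS only, and the class without Smad1. The steps were tested on simulated data. Python 3.11.15, numpy 2.4.6, pandas 2.3.3, scipy 1.17.1, pysam 0.24.0, samtools 1.23.1 and matplotlib 3.10.9 were used.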

Additional observations from a re-analysis of the deposited data

How the results depend on the processing

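Of 138 values of class counts and shares recomputed under an alternative, 112 stayed within 1.5 times the reported count or within the counting interval of the reported share, and 26 moved. No recomputed value moved with a q-value below 1e-06, an overlap of 50%, the class without Smad1 or the scale of fragments per M reads. On the last scale, however, the share above the median ratio at the signal-transducing Smads with set 1 went from 72.7% to 45.5%. The q-value limit could not move the region counts, as every called region of the 10 genes already lay below it. Because the counting intervals were wide, a share that stayed within its interval may still have changed much. An example is lost regions at the signal-transducing Smads, 9.09% as reported and 40% with lists of equal length. With lists of equal length, 14925 regions each, the signal-transducing Smads held 5 regions untreated and 6 in TGF-β-treated siControl, the feedback genes held 14, 15 and 11 in the first 3 libraries, and regions above the median ratio were 66.7% at the feedback genes with set 1 and 0% at the signal-transducing Smads with set 2. With 10 kb upstream the feedback genes held 13, 14, 10 and 6 regions. With regions nearest to the TSS of the member only, the signal-transducing Smads held 7 and 9 in the siControl libraries and 4 with set 2, and the feedback genes 10, 11, 7 and 3 in the library order, with 72.7% absent with set 2 and 71.4% above the median ratio with set 1. Without Smad3, a choice made after seeing the data, the signal-transducing Smads held 2, 3, 2 and 2 regions, with 0% lost with TGF-β and 0% above the median ratio with set 2. The strict AP-1 letters, likewise added after seeing the data, moved neither share beyond its interval. The cause of these shifts was not tested beyond what each alternative removes. No paired analysis was possible because each group had 1 list. Leaving out a replicate was not possible either. Depth limits which weak sites can be called, with at least 10 to 12 fragments at the weakest called summit, and the few regions per class leave wide counting intervals.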
